A study of Mus musculus with 4 samples.

Results

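The 35 genes described here are mouse antiviral effectors and sensors whose transcription is raised by interferon. They were chosen by symbol: Ifit1, Ifit2 and Ifit3 of the IFIT family, 8 members of the OAS family, Mx1 and Mx2, 5 sensors of viral nucleic acid, Ifi204 and Ifi205 of the IFI200 family, Parp9, Parp14 and Dtx3l, the ISG15 system (Isg15 and Usp18) and 10 other effectors. All 35 symbols were found, each in 1 of the 22700 rows of the tables. All 35 also reached the minimum of 20 normalised reads in at least 1 library that 13642 rows passed, and the member with the lowest maximum (Isg20) reached 154.1. The series asked how type 2 diabetes changes the macrophage transcriptome. Male mice aged 12 weeks gave the marrow, which was grown for 7 to 8 days in 20 ng/ml GM-CSF or in 10 ng/ml M-CSF, the growth factors that drive marrow precursors into dendritic-like and macrophage cultures. The db/db mice, on the BKS background, carry a mutation of the leptin receptor on both chromosomes and are labelled type 2 diabetic; their db/+ littermates carry it once and are the controls, so that no group lacks the mutation. The 4 libraries are 1 each of db/db GM-CSF, db/+ GM-CSF, db/db M-CSF and db/+ M-CSF. The labels do not give whether a library came from 1 animal or from several.

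Viral RNA or DNA inside a cell is detected by sensors such as the RIG-I-like receptors, which signal through IRF proteins to switch on interferon genes. Secreted type I interferon binds the receptor formed by Ifnar1 and Ifnar2 and activates the kinases Jak1 and Tyk2, and a complex that contains Stat2 and Irf9 then enters the nucleus and binds the interferon-stimulated response element (ISRE) in target promoters. The proteins made from those targets block viral translation, degrade viral RNA, trap particles or feed back on the sensing step. Macrophages express many of these genes without infection, at a level kept up by small amounts of constitutive interferon.

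Promoter windows running from 250 bases before to 50 bases after the transcript start were available from RefSeq (GRCm38.p6) for 23 of the 35 genes. The ISRE core was searched on both strands as GAAA, any 2 bases and GAAA. It was present in a window of 13 of these 23 genes (56.5%), against 3.99% of the 27025 genes with a window. The 13 genes were Bst2, Ddx58, Eif2ak2, Ifi205, Ifih1, Ifit1, Ifit3, Isg15, Oas1a, Oas1c, Oas1g, Oas3 and Rsad2. The interferon gamma activation motif (GAS), searched as TTCNNNGAA on both strands, was present in 7 of the 23 (30.4%), against 9.55% of all genes, and overlapped an ISRE core only in Bst2. A match describes the letters of the window and is not a measured binding site, and a window without a match says only that these letters were not in it. A set of 4 windows is printed 5′ to 3′ on the gene's strand, with the ISRE cores in capitals: that of Isg15, where 3 overlapping cores formed 1 block, that of Ifit3, the gene with the largest culture difference below, and those of the neighbouring paralogs Oas1a and Oas1g, which carry the same block of letters.
Isg15 (GRCm38 chr4:156200769-156201068, minus strand): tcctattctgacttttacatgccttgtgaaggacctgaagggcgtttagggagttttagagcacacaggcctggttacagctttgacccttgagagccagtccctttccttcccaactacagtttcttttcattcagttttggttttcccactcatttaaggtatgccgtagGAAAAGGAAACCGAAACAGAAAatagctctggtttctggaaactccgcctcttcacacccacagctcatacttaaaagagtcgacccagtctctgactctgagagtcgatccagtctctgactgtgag
Ifit3 (GRCm38 chr19:34583279-34583578, plus strand): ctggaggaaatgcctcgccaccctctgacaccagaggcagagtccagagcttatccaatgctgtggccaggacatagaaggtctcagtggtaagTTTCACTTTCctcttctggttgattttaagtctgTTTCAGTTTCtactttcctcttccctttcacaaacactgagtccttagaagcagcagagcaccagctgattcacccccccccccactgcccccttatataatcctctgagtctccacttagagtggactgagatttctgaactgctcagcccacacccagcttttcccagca
Oas1a (GRCm38 chr5:120907476-120907775, minus strand): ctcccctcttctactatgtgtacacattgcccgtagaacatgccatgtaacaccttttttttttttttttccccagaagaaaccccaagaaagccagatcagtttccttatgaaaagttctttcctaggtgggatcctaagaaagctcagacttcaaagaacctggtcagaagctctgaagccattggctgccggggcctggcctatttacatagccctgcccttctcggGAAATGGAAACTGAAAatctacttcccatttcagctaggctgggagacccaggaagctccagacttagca
Oas1g (GRCm38 chr5:120887564-120887863, minus strand): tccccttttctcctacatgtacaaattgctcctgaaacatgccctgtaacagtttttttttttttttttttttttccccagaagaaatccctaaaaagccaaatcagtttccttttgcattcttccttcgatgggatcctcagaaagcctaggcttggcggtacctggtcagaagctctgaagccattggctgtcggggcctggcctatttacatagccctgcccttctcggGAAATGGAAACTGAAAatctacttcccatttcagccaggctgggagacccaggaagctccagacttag
The first base of the blocks lay at -78 from the transcript start in Isg15, at -20 in Oas1a and at -18 in Oas1g, and the separate cores of Ifit3 lay at -156 and -122. Several of the 35 genes are next to each other in the RefSeq order of protein-coding genes: Rsad2 and Cmpk2 on chromosome 12, Parp14, Dtx3l and Parp9 on chromosome 16, Ifit2 and Ifit3 on chromosome 19, and Oasl2 with Oasl1, Oas2 with Oas3 and Oas1g with Oas1a on chromosome 5.

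The tables hold read counts divided by a size factor per library, called normalised reads below, and the libraries held 25603389 to 28622706 reads. The macrophage label was checked against Csf1r, the M-CSF receptor, with 33103 (db/db) and 33550 (db/+) normalised reads in GM-CSF cultures and 105159 (db/db) and 120627 (db/+) in M-CSF cultures. Of 16 macrophage markers, 12 were lower in GM-CSF cultures in each genotype, Csf1r among them. Lyz2, Cd68, Itgam and Marco were higher. Lyz2 had 621787 (db/db) and 626680 (db/+) in GM-CSF cultures and 242719 (db/db) and 250024 (db/+) in M-CSF cultures. Markers of other cells were also present. Of a list of 21 fibroblast and stromal genes, Vim and Fstl1 held 98.7% of the summed level in each GM-CSF library. The other 19 summed to 1729 (db/db) and 1645 (db/+) in GM-CSF cultures and to 125921 (db/db) and 56156 (db/+) in M-CSF cultures. The collagen gene Col1a1 had 3.2 (db/db) and 6.7 (db/+) in GM-CSF cultures and 5709 (db/db) and 2273 (db/+) in M-CSF cultures. Lists for T and NK cells summed to at most 104 in any library, with Cd3d, Cd3e and Cd3g all under the level minimum. The plasmacytoid dendritic list, whose cells are specialised interferon producers, summed to 1110 (db/db) and 1194 (db/+) in GM-CSF cultures and to 4387 (db/db) and 4405 (db/+) in M-CSF cultures. Tcf4 made up most of the M-CSF sums, with 2927 (db/db) and 2892 (db/+). Of the 9 genes of the list at the level minimum, 7 (db/db) and 6 (db/+) were lower in GM-CSF cultures. Siglech, 1 of these, had 9.7 (db/db) and 6.7 (db/+) normalised reads in GM-CSF cultures and 298.9 (db/db) and 342.4 (db/+) in M-CSF cultures. Cox6a2 went the other way, with 230.2 (db/db) and 272.6 (db/+) in GM-CSF cultures and 16.5 (db/db) and 20 (db/+) in M-CSF cultures.

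Levels of the interferon-stimulated genes differed more between growth factors than between genotypes. Every one of the 35 was lower in the GM-CSF than in the M-CSF library of the same genotype, or 22 (db/db) and 24 (db/+) of the 35 where libraries were scaled to their macrophage markers. Among all genes, 49.4% (db/db) and 48% (db/+) were lower, or 12.8% (db/db) and 11.1% (db/+) on that scaling. The median log2 fold of all genes was then 1.46 (db/db) and 1.67 (db/+). A gene can thus have a ratio over 1 on that scaling and still lie under the median gene. The summed level of the 35 was 27218 (db/db) and 26674 (db/+) normalised reads in GM-CSF cultures, against 81303 (db/db) and 95756 (db/+) in M-CSF cultures. In a limma fit of genotype plus culture to log2(normalised reads + 5), 34 of the 35 fell in GM-CSF cultures at a Benjamini-Hochberg adjusted p under 0.05 and none rose, while 27.3% of all 13642 genes fell and 29.8% rose. Scaled by total reads, all 35 fell, while 46.7% of all genes fell and 16.8% rose. With no minimum level, 22700 rows entered the fit and none of the 35 was called, their smallest adjusted p being 0.0628, although 33 had an unadjusted p under 0.05, as had 35.8% of all rows. The spread in this fit is the mismatch between genotypes over 1 residual degree of freedom, shared across genes, and nothing in the sources says the libraries are independent replicates. Sizes of the limma adjusted p-values below depend on the variance trend. Without that trend the smallest limma adjusted p of any gene was 0.00335. It then called 33 of the 35 lower, while 21.6% of all genes fell and 21% rose. In such bulk samples fewer cells of a type and less RNA per cell cannot be told apart.

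**Figure D1:**
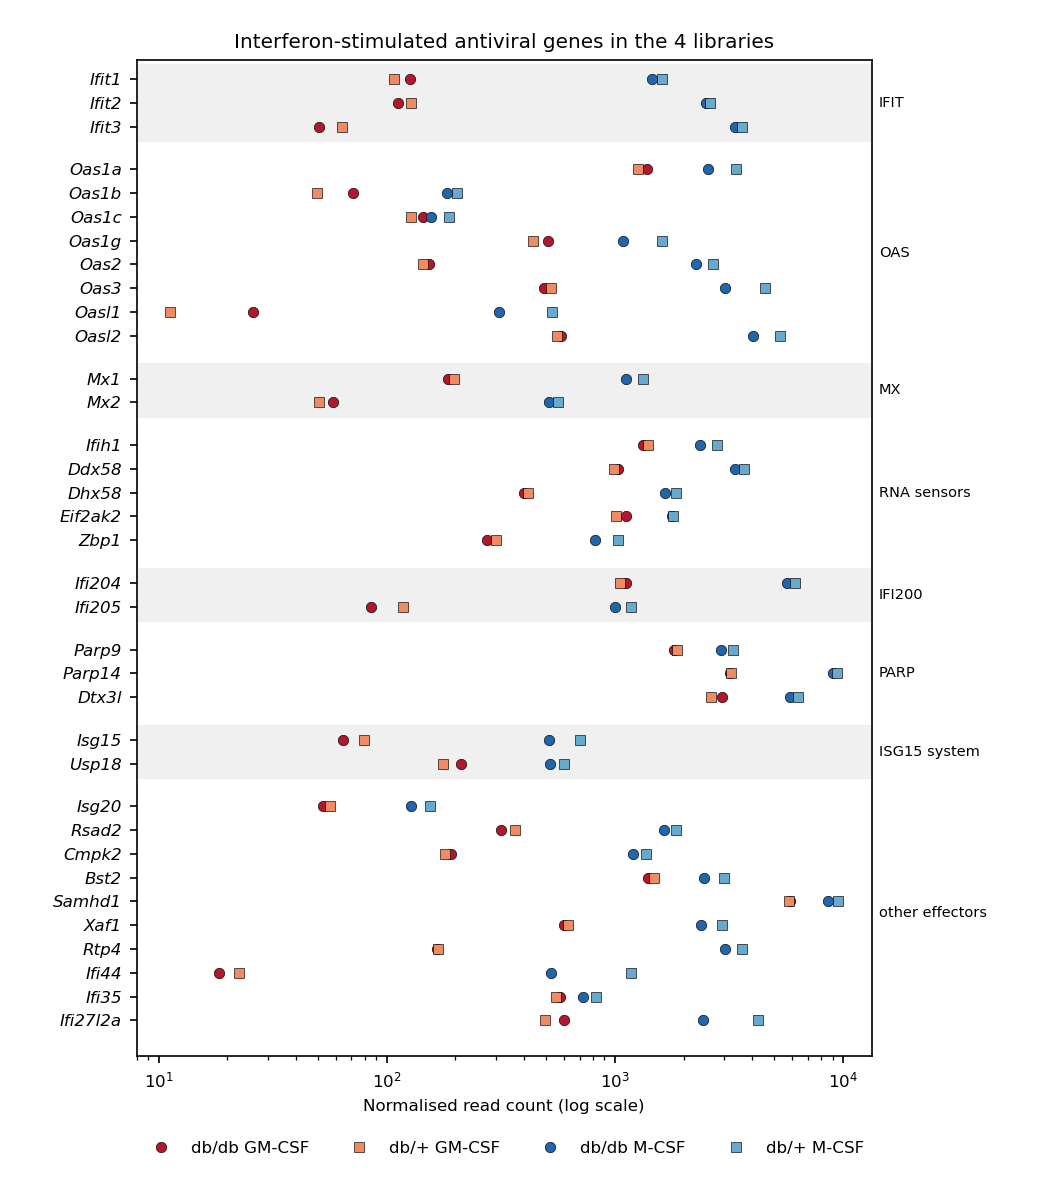
Normalised read count (log scale) of each of the 35 interferon-stimulated genes in the 4 libraries, grouped by subfamily, 1 point per library. The db/db and db/+ GM-CSF points lie left of both M-CSF points for each gene, and the widest gap is that of Ifit3 (50.6 in db/db and 63.9 in db/+ GM-CSF, against 3364 in db/db and 3611 in db/+ M-CSF).

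The IFIT family had the largest drop in GM-CSF cultures. IFIT proteins bind viral RNA and block its translation. Ifit3 had 50.6 (db/db) and 63.9 (db/+) normalised reads in GM-CSF cultures, against 3364 (db/db) and 3611 (db/+) in M-CSF cultures. It fell by 5.82 on the log2 scale (SE 0.14, limma adjusted p = 8.7e-14), and 81 of the 13642 genes (0.594%) fell further. Ifit2 had 111.9 (db/db) and 127.9 (db/+) in GM-CSF cultures and 2502 (db/db) and 2606 (db/+) in M-CSF cultures, and Ifit1, which recognises RNA lacking the host cap methylation, had 127 (db/db) and 107.7 (db/+) in GM-CSF cultures and 1459 (db/db) and 1603 (db/+) in M-CSF cultures. All 3 fell, with log2 differences of -5.82 to -3.65. Ifit3 shares 51.2% of its 50-base words with Ifit3b, so its reads may be divided between these copies.

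Active OAS enzymes make the oligoadenylate messenger that activates RNase L. The culture differences of the 8 genes of the family ran from -4.20 to -0.32 on the log2 scale. The summed level of the 8 genes was 3356 (db/db) and 3112 (db/+) in GM-CSF cultures and 13630 (db/db) and 18493 (db/+) in M-CSF cultures, and 7 of the 8 fell. Scaling to the macrophage markers put Oas1a and Oas1c in both genotypes and Oas1b and Oas1g in db/db over 1. The interval of Oas1b then held 1 (0.702 to 1.6). Oas2 had 152.8 (db/db) and 143.6 (db/+) in GM-CSF cultures and 2265 (db/db) and 2703 (db/+) in M-CSF cultures, a log2 difference of -4.02 (SE 0.13, limma adjusted p = 2.5e-12). Oas3, the largest enzyme of the family, had 488.4 (db/db) and 522.7 (db/+) in GM-CSF cultures and 3037 (db/db) and 4572 (db/+) in M-CSF cultures. The 2-5A synthetase-like genes also fell: Oasl2 had 582 (db/db) and 559.7 (db/+) in GM-CSF cultures and 4037 (db/db) and 5297 (db/+) in M-CSF cultures. Oasl1, described in mouse as an inhibitor of Irf7 translation, had 25.8 (db/db) and 11.2 (db/+) in GM-CSF cultures and 310.2 (db/db) and 527.9 (db/+) in M-CSF cultures. It fell by 4.20, with the largest SE of the 35 (0.34).

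The 4 Oas1 paralogs had smaller culture differences than Oas2, Oas3 and the Oasl genes. Oas1a had 1380 (db/db) and 1261 (db/+) in GM-CSF cultures and 2552 (db/db) and 3398 (db/+) in M-CSF cultures, a log2 difference of -1.16. Oas1g had 511 (db/db) and 436.3 (db/+) in GM-CSF cultures and 1090 (db/db) and 1604 (db/+) in M-CSF cultures, a log2 difference of -1.48. Oas1a and Oas1g share 57.6% and 45.7% of their 50-base words with other genes, mostly each other, so the division of reads between them is uncertain. Oas1b, the flavivirus resistance gene of mice, had 71 (db/db) and 49.4 (db/+) in GM-CSF cultures and 183 (db/db) and 203.5 (db/+) in M-CSF cultures, a log2 difference of -1.62. Oas1c was the member not called: it had 144.2 (db/db) and 127.9 (db/+) in GM-CSF cultures and 156 (db/db) and 187.4 (db/+) in M-CSF cultures, a log2 difference of -0.32 (SE 0.21, limma adjusted p = 0.217). It was called on the scaling by total reads, where the log2 difference was -0.65.

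Mx1 and Mx2 encode dynamin-like GTPases that restrict viral nucleoproteins, and both fell. Mx1 had 185 (db/db) and 197.4 (db/+) in GM-CSF cultures and 1119 (db/db) and 1333 (db/+) in M-CSF cultures, a log2 difference of -2.64 (SE 0.13). Mx2 had 58.1 (db/db) and 50.5 (db/+) in GM-CSF cultures and 513.2 (db/db) and 561.2 (db/+) in M-CSF cultures, a log2 difference of -3.19 (SE 0.20). Most classical inbred mouse strains carry a defective Mx1 allele, and the allele of these mice was not analysed here.

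The 5 sensors kept more of their level in GM-CSF cultures than the IFIT genes did, with log2 differences of -2.09 to -0.75, and all 5 fell, Ifih1 and Eif2ak2 turning to higher on the macrophage scaling. Ddx58 (RIG-I), which detects short triphosphate RNA, had 1034 (db/db) and 994.8 (db/+) in GM-CSF cultures and 3364 (db/db) and 3686 (db/+) in M-CSF cultures. Dhx58 (LGP2), a regulator of the other RIG-I-like receptors, had 398.1 (db/db) and 416.1 (db/+) in GM-CSF cultures and 1656 (db/db) and 1855 (db/+) in M-CSF cultures. Ifih1 (MDA5), the sensor of long double-stranded RNA, had 1334 (db/db) and 1391 (db/+) in GM-CSF cultures and 2354 (db/db) and 2791 (db/+) in M-CSF cultures. The log2 differences were -1.79 for Ddx58, -2.09 for Dhx58 and -0.91 for Ifih1. Eif2ak2 (PKR), which stops translation on binding double-stranded RNA, had 1114 (db/db) and 1010 (db/+) in GM-CSF cultures and 1777 (db/db) and 1794 (db/+) in M-CSF cultures. Zbp1, the sensor of Z-form nucleic acid, had 274.3 (db/db) and 300.6 (db/+) in GM-CSF cultures and 820.8 (db/db) and 1035 (db/+) in M-CSF cultures.

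Ifi204 and Ifi205 belong to the IFI200 family of DNA-binding proteins, and both fell in GM-CSF cultures. Ifi204 had 1122 (db/db) and 1056 (db/+) in GM-CSF cultures and 5659 (db/db) and 6137 (db/+) in M-CSF cultures, a log2 difference of -2.43. Ifi205 had 85 (db/db) and 117.8 (db/+) in GM-CSF cultures and 1003 (db/db) and 1175 (db/+) in M-CSF cultures, a log2 difference of -3.37. They share 20% and 18.6% of their 50-base words with relatives in the same cluster.

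The PARP group had the smallest median drop of the subfamilies (-1.13), and on the macrophage scaling Parp9 and Dtx3l in both genotypes and Parp14 in db/+ turned to higher. Parp14, an ADP-ribosyltransferase of macrophage signalling, had 3193 (db/db) and 3245 (db/+) in GM-CSF cultures and 9075 (db/db) and 9424 (db/+) in M-CSF cultures, a log2 difference of -1.52. Parp9 and the ubiquitin ligase Dtx3l form a complex and are divergent neighbours. Parp9 had 1816 (db/db) and 1874 (db/+) in GM-CSF cultures and 2912 (db/db) and 3305 (db/+) in M-CSF cultures, and Dtx3l had 2938 (db/db) and 2632 (db/+) in GM-CSF cultures and 5870 (db/db) and 6336 (db/+) in M-CSF cultures. The log2 differences were -0.75 for Parp9 and -1.13 for Dtx3l. Their exons overlap on opposite strands over 458 bases, and the strand setting used in counting is not stated.

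Isg15 is the ubiquitin-like modifier of the response and Usp18 the protease that removes it and dampens the receptor. Isg15 had 64.6 (db/db) and 79.6 (db/+) in GM-CSF cultures and 514.1 (db/db) and 701.9 (db/+) in M-CSF cultures, a log2 difference of -2.98. Usp18 had 210.9 (db/db) and 176.1 (db/+) in GM-CSF cultures and 517.6 (db/db) and 601.1 (db/+) in M-CSF cultures, a log2 difference of -1.51. On the macrophage scaling its ratio in db/db was 1.13, with an interval that held 1 (0.887 to 1.42).

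The 10 other effectors all fell, although Isg20, Bst2, Samhd1 and Ifi35 had ratios over 1 on the macrophage scaling. The intervals of Isg20 then held 1 in both genotypes. Ifi44 and Rtp4 fell most. Ifi44, an interferon-induced antiviral protein, had 18.3 (db/db) and 22.4 (db/+) in GM-CSF cultures and 525.4 (db/db) and 1174 (db/+) in M-CSF cultures, a log2 difference of -4.97 (SE 0.25, limma adjusted p = 3.31e-10). Rtp4, a negative regulator of interferon responses in mouse, had 166.8 (db/db) and 167.1 (db/+) in GM-CSF cultures and 3051 (db/db) and 3596 (db/+) in M-CSF cultures, a log2 difference of -4.27 (SE 0.12, limma adjusted p = 4.31e-13). The neighbours Rsad2 and Cmpk2 make and supply nucleotide analogs that end viral RNA chains, and both fell, with log2 differences of -2.34 and -2.75. Rsad2 (viperin) had 317.4 (db/db) and 365.6 (db/+) in GM-CSF cultures and 1647 (db/db) and 1855 (db/+) in M-CSF cultures, and Cmpk2 had 191.5 (db/db) and 180.6 (db/+) in GM-CSF cultures and 1207 (db/db) and 1365 (db/+) in M-CSF cultures. Ifi27l2a, a small mitochondrial protein gene, had 596 (db/db) and 492.4 (db/+) in GM-CSF cultures and 2423 (db/db) and 4234 (db/+) in M-CSF cultures, a log2 difference of -2.55. Xaf1, a pro-apoptotic factor, had 601.4 (db/db) and 621.4 (db/+) in GM-CSF cultures and 2391 (db/db) and 2964 (db/+) in M-CSF cultures, a log2 difference of -2.11.

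The remaining 4 effectors had smaller differences. Samhd1, which depletes the nucleotides that retroviruses need, had 5830 (db/db) and 5781 (db/+) in GM-CSF cultures and 8635 (db/db) and 9521 (db/+) in M-CSF cultures. Bst2 (tetherin), which holds budding particles on the cell and is also a plasmacytoid dendritic marker, had 1396 (db/db) and 1485 (db/+) in GM-CSF cultures and 2462 (db/db) and 3017 (db/+) in M-CSF cultures. Their ratios of GM-CSF to M-CSF were 0.675 (db/db) and 0.607 (db/+) for Samhd1 and 0.567 (db/db) and 0.492 (db/+) for Bst2. The exonuclease gene Isg20 had 52.7 (db/db) and 56.1 (db/+) in GM-CSF cultures and 128.1 (db/db) and 154.1 (db/+) in M-CSF cultures, a log2 difference of -1.29. Ifi35, which modulates sensing, had 575.6 (db/db) and 549.6 (db/+) in GM-CSF cultures and 724.9 (db/db) and 829.4 (db/+) in M-CSF cultures, and its log2 difference of -0.46 (limma adjusted p = 0.00481) was the smallest called. That call was lost with DESeq2, without the variance trend, and with either GM-CSF library left out.

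Per kilobase of exon (union of GENCODE M21 exons), the order of the genes also changed with the culture. Ifi27l2a was at the top in M-CSF cultures, with 5234 (db/db) and 9146 (db/+) normalised reads per kilobase, and had 1287 (db/db) and 1063 (db/+) in GM-CSF cultures. Bst2 was at the top in GM-CSF cultures, with 1546 (db/db) and 1645 (db/+), and had 2726 (db/db) and 3341 (db/+) in M-CSF cultures. Ifi44 was at the bottom in GM-CSF cultures, with 2.99 (db/db) and 3.65 (db/+) per kilobase, and had 85.7 (db/db) and 191 (db/+) in M-CSF cultures.

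The culture folds of the genotypes, which share no library, lay close together, but the drop was mostly smaller in db/db. The median log2 fold of the 35 was -2.01 in db/db and -2.24 in db/+, against 0.01 (db/db) and 0.03 (db/+) for all genes. Only Ifit2, Ifit3, Ifi205 and Rsad2 fell further in db/db. Taken within db/db, 26 of the 35 were at least 2-fold lower in GM-CSF on the log2(normalised reads + 5) scale (15.8% of all genes), and within db/+ 30 were (15.7% of all genes). The interval of the ratio lay below 1 for 34 genes in db/db (31.9% of all genes) and for 35 in db/+ (30.3% of all genes). Across the 35 genes the db/db and db/+ log2 folds had a Pearson's r of 0.97 and a Spearman's rho of 0.98, and the median absolute difference between them was 0.23. The correlation is over genes, which share the libraries' scaling and are not replicates. Oasl1 differed most, by 1.68: its ratio of GM-CSF to M-CSF was 0.0832 (95% interval 0.0422 to 0.149) in db/db and 0.0212 (0.00683 to 0.0501) in db/+. Ratio intervals here and below are exact conditional binomial intervals on read pairs, and they cover counting error only.

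**Figure D2:**
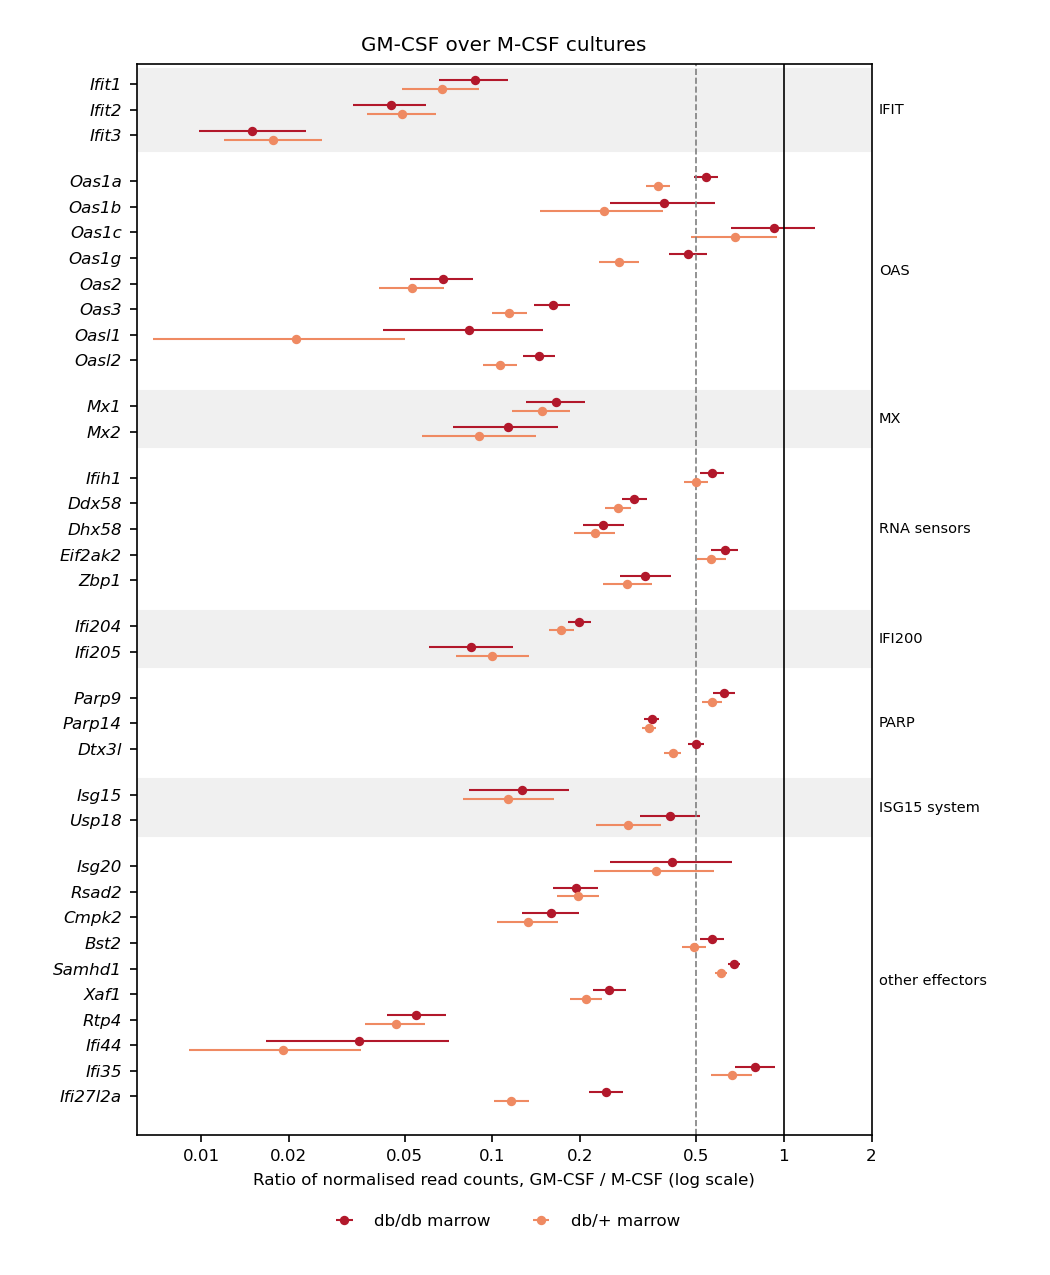
Ratio of GM-CSF to M-CSF normalised read counts (log scale) for each gene in db/db and db/+ marrow, with 95% intervals for counting error; the solid line marks 1 and the dashed line 0.5. All ratios lie below 1 on the deposited scaling (22 in db/db and 24 in db/+ marrow when scaled to macrophage markers), from 0.015 for Ifit3 to 0.924 for Oas1c, whose interval crosses 1, both in db/db marrow.

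Markers of several cell types moved with the culture as well, beside the 27.3% of all genes that fell and the 29.8% that rose. Of 20 stromal markers, 18 fell and 2 rose in GM-CSF cultures, with a median log2 fold of -6.66 in db/db and -5.16 in db/+. Of 11 neutrophil markers, 10 fell and 1, Mmp8, rose, with a median of -5.17 in db/db and -5.31 in db/+. Mpo, the granule peroxidase of neutrophil precursors, had 0 (db/db) and 1.1 (db/+) normalised reads in GM-CSF cultures and 1373 (db/db) and 1448 (db/+) in M-CSF cultures, and Ngp had 45.2 (db/db) and 35.9 (db/+) in GM-CSF cultures and 3368 (db/db) and 3536 (db/+) in M-CSF cultures. The part of stromal and neutrophil cells in the culture differences was not tested. Of 16 macrophage markers, 11 fell and 3 (Cd68, Lyz2 and Marco) rose in GM-CSF cultures. Emr1 (F4/80), of those that fell, had 11450 (db/db) and 11230 (db/+) normalised reads in GM-CSF cultures, against 97863 (db/db) and 98662 (db/+) in M-CSF cultures. Scaling each pair of libraries so that this list had a median ratio of 1 left 22 (db/db) and 24 (db/+) of the 35 genes lower in GM-CSF. The IFIT, MX and IFI200 genes, Oas2, Oas3, Oasl1, Oasl2, Ddx58, Dhx58, Zbp1 and Isg15 were lower in both. Oas1a, Oas1c, Ifih1, Eif2ak2, Parp9, Dtx3l, Isg20, Bst2, Samhd1 and Ifi35 had ratios over 1 in both, with intervals that held 1 for Isg20. The median log2 fold of all genes was then 1.46 (db/db) and 1.67 (db/+). This scaling rests on a list whose markers moved in both directions and does not measure macrophage content. The part of macrophage content in the culture differences was not tested. Of 14 markers of GM-CSF cultures and dendritic cells, 11 rose and 3 fell. The 3 were Flt3, a dendritic progenitor marker at 0 in both GM-CSF libraries, Ciita and Cd86, while Itgax (CD11c) had 56259 (db/db) and 56042 (db/+) in GM-CSF cultures and 921 (db/db) and 775.2 (db/+) in M-CSF cultures.

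Upstream of these genes, transcripts of the interferons themselves were barely detected. None of the 19 ligand genes in the tables reached the level minimum, and their summed level was 27 (db/db) and 16 (db/+) in GM-CSF cultures and 10 (db/db) and 36 (db/+) in M-CSF cultures. Ifnb1 was at 0 in 3 libraries and at 3.8 in db/+ M-CSF, below the 5.71 that 3 read pairs amount to in that library. Among 6 receptor genes, 4 fell and 2 rose in GM-CSF cultures, against 27.3% and 29.8% of all genes. On the macrophage scaling 0 were lower in either genotype, against 12.8% (db/db) and 11.1% (db/+) of all genes. Ifnar1 had 5186 (db/db) and 5049 (db/+) in GM-CSF cultures and 9817 (db/db) and 9860 (db/+) in M-CSF cultures (a log2 difference of -0.94), and Ifnar2 had 3166 (db/db) and 3207 (db/+) in GM-CSF cultures and 5061 (db/db) and 5528 (db/+) in M-CSF cultures. Ifngr1 fell by 1.23, while Ifngr2 rose by 0.39 and the interferon lambda receptor Il28ra by 2.17 on the log2 scale.

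Of 11 JAK-STAT and IRF genes, 7 fell and 2 rose, against 27.3% and 29.8% of all genes. On the macrophage scaling 2 were lower in each genotype, against 12.8% (db/db) and 11.1% (db/+) of all genes. Irf7, the factor that amplifies interferon production and is itself induced by interferon, had 220.5 (db/db) and 166 (db/+) in GM-CSF cultures, against 4305 (db/db) and 5663 (db/+) in M-CSF cultures. Its log2 difference of -4.65 (SE 0.15, limma adjusted p = 2.46e-12) was larger in size than that of any of the 35 genes except Ifit3 and Ifi44. Stat2 had 1998 (db/db) and 2036 (db/+) in GM-CSF cultures and 2914 (db/db) and 3709 (db/+) in M-CSF cultures, and Irf9 had 1216 (db/db) and 1176 (db/+) in GM-CSF cultures and 2264 (db/db) and 2527 (db/+) in M-CSF cultures. Both fell, with a log2 difference of -0.70 for Stat2 and ratios of GM-CSF to M-CSF of 0.537 (db/db) and 0.466 (db/+) for Irf9 (limma adjusted p = 3.99e-07). Irf1, Irf5 and Irf8 fell too, Jak2 and Tyk2 rose by 0.65 and 0.37, and Jak1 and Irf3 did not pass the test.

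Genes of nucleic acid sensing outside the 35 were divided, with 5 of 14 lower and 4 higher, against 27.3% and 29.8% of all genes. On the macrophage scaling 1 was lower in each genotype, against 12.8% (db/db) and 11.1% (db/+) of all genes. The endosomal sensors fell: the log2 difference was -2.44 for Tlr9, -1.01 for Tlr7 and -1.36 for Unc93b1, the chaperone that brings them to endosomes. The DNA sensor Aim2 rose, with ratios of GM-CSF to M-CSF of 2.1 (db/db) and 1.93 (db/+), and the adaptors Ticam1, Tmem173 (STING) and Mavs rose by 0.75, 0.46 and 0.26 on the log2 scale. Negative regulators were likewise divided, with 5 of 14 lower and 7 higher, and 1 lower in each genotype on the macrophage scaling: Trex1, the nuclease that clears cytosolic DNA, fell by 2.38, and the cytokine signalling inhibitors Socs1 and Socs3 rose by 0.97 and 1.14. Of 39 other interferon-stimulated genes, 31 fell and 2 rose, and 11 (db/db) and 12 (db/+) were lower on the macrophage scaling. Ms4a4c fell by 5.23, and Mnda, of the IFI200 family, fell by 3.01, whereas Ifitm1 rose by 1.83 and Ifi30 (GILT), a lysosomal thiol reductase of antigen processing, rose by 0.90.

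The second comparison asked what the diabetic genotype did to these genes within each culture. In M-CSF cultures the 35 genes were all lower in the db/db than in the db/+ library, as were 45.9% of all genes, with a median log2 fold of -0.23 against 0.02 for all genes. The interval of the ratio lay below 1 for 25 of the 35 (14.3% of all genes) and above 1 for none (19.7% of all genes). Only Ifi44 was at least 2-fold lower (0.777% of all genes), and none was 2-fold higher (5.05% of all genes). Scaled to the macrophage marker list, 31 of the 35 were lower in db/db and 14 had an interval below 1, against 29.7% and 6.13% of all genes, whose median log2 fold was then 0.13. Under it, Ifit2, Ifit3, Eif2ak2 and Parp14 turned to ratios of 1.03, 1.002, 1.07 and 1.04, and scaled by total reads Eif2ak2 turned to 1.003. With 1 library per group the difference has no replicate check and no p-value, and animal, culture and library cannot be told apart from genotype.

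**Figure D3:**
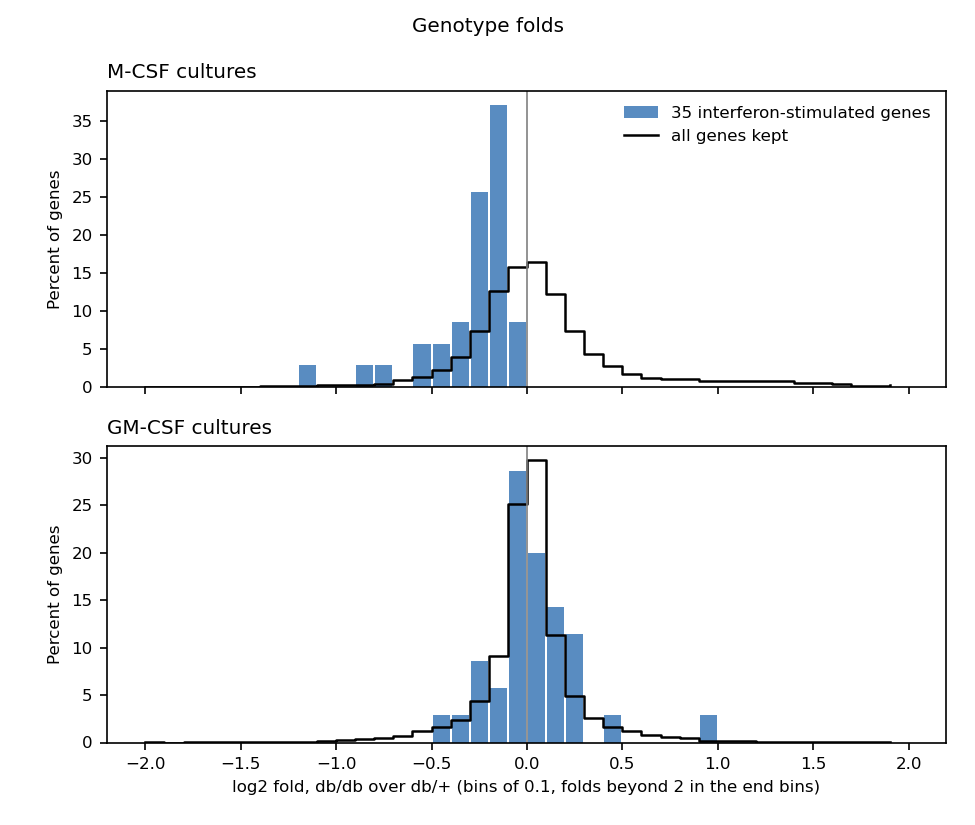
Percent of genes per 0.1 bin of the log2 fold of db/db over db/+, for the 35 interferon-stimulated genes (bars) and all 13642 genes kept (line), in M-CSF cultures (top) and GM-CSF cultures (bottom). In M-CSF cultures the 35 genes lie left of 0 with a median of -0.23 (31 of them when scaled to macrophage markers), and in GM-CSF cultures they lie on both sides with a median of 0.01.

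The subfamilies differed in the size of this shift. The OAS genes had the lowest median log2 fold (-0.40), with 6 of 8 intervals below 1. Ratios of db/db to db/+ in M-CSF cultures were 0.588 (interval 0.483 to 0.711) for Oasl1, 0.664 (0.624 to 0.707) for Oas3, 0.68 (0.612 to 0.755) for Oas1g, 0.751 for Oas1a, 0.762 for Oasl2 and 0.838 for Oas2. Oas1b and Oas1c, the OAS genes with the lowest M-CSF counts beside Oasl1, had ratios of 0.899 and 0.832 with intervals that held 1. Isg15 had a ratio of 0.732 (0.626 to 0.856), and its protease Usp18 had 0.861 (0.732 to 1.01). The IFIT genes, which dropped most with GM-CSF, had ratios of 0.91 to 0.96 with a median log2 fold of -0.10, and 1 of the 3 intervals, that of Ifit3, lay below 1.

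The lowest ratio was that of Ifi44, 0.448 (interval 0.389 to 0.515), from 525.4 normalised reads in db/db and 1174 in db/+. Ifi27l2a followed with 0.572 (0.535 to 0.612), from 2423 in db/db and 4234 in db/+. Zbp1 (0.793), Xaf1 (0.807), Bst2 (0.816) and Mx1 (0.84) had intervals below 1. Ratios of Ifih1, Dhx58 and Ddx58 were 0.844, 0.893 and 0.913, and that of Eif2ak2 was 0.99 (0.906 to 1.08), the nearest to 1 of all 35. In the IFI200 and PARP groups ratios were 0.854 for Ifi205, 0.922 for Ifi204, 0.881 for Parp9, 0.927 for Dtx3l and 0.963 for Parp14. Parp14, with Samhd1 the most abundant of the 35 by read count, had an interval of 0.926 to 1.001 that held 1.

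Among upstream genes, the relay from receptor to promoter was mostly lower in the db/db M-CSF library. Of all genes, 45.9% were lower (29.7% on the macrophage scaling), 14.3% had an interval below 1 and 19.7% one above 1. Of the 11 JAK-STAT and IRF genes, 9 were lower (7 on the macrophage scaling) and 8 had an interval below 1, among them Irf7 with a ratio of 0.76 (0.721 to 0.802) and Stat2 with 0.786 (0.735 to 0.839). Irf9 had 0.896. The other upstream lists were divided: 3 of 6 receptor genes were lower, 1 with an interval below 1, and Ifnar1 had 0.996 (0.959 to 1.03). Of 14 nucleic acid sensing genes, 9 were lower and 5 had an interval below 1, with a median log2 fold of -0.04. Of 14 negative regulators, 7 were lower, 4 with an interval below 1 and 3 with one above 1, among them Socs3 with a ratio of 1.4. Of the 39 other interferon-stimulated genes, 37 were lower (28 on the macrophage scaling), 23 with an interval below 1. Beside these values, the macrophage markers had a median log2 fold of -0.10 between the M-CSF libraries, 13 of 16 being lower in db/db, and 16 of 20 stromal markers were at least 2-fold higher. Col1a2, a fibrillar collagen chain, had 22962 normalised reads in db/db M-CSF and 8292 in db/+ M-CSF. The plasmacytoid dendritic list had 3 of 9 genes lower, with a median of 0.12, and Siglech had a ratio of 0.873 (0.706 to 1.08). The part of these other cells in the lower interferon-stimulated levels was not tested.

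**Figure D4:**
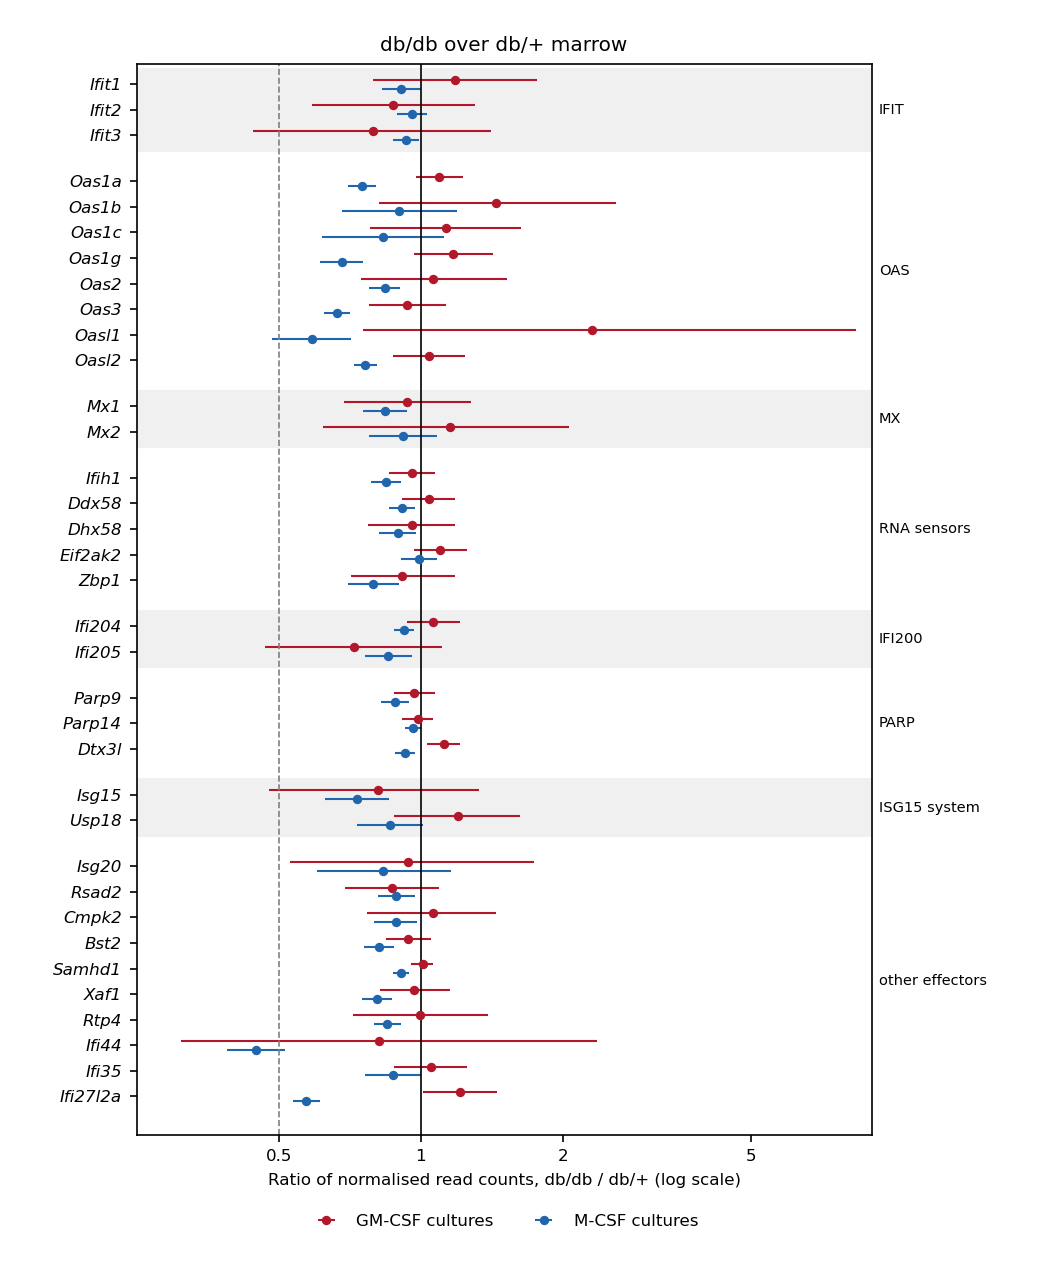
Ratio of db/db to db/+ normalised read counts (log scale) for each gene in GM-CSF and M-CSF cultures, with 95% intervals for counting error; the solid line marks 1 and the dashed line 0.5. M-CSF ratios run from 0.448 (Ifi44) to 0.99 (Eif2ak2); GM-CSF ratios lie on both sides of 1 with wider intervals at low counts, widest for Oasl1 (0.755 to 8.34).

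In GM-CSF cultures the 35 genes as a whole lay on both sides of 1, although 7 of the 8 OAS genes were higher in db/db (median log2 fold 0.15), each with an interval that held 1. The db/db library was lower for 17 of the 35 (46.1% of all genes) and higher for 18. On the log2(normalised reads + 5) scale none reached 2-fold lower (0.476% of all genes) or higher (0.586% of all genes). The plain ratio of Oasl1 was 2.3 (0.755 to 8.34), on 24 (db/db) and 10 (db/+) reads. The median log2 fold was 0.01, as for all genes. No interval lay below 1 (2.41% of all genes), and those of Dtx3l and Ifi27l2a lay above 1 (4.3% of all genes). Dtx3l had a ratio of 1.12 (1.03 to 1.21) and Ifi27l2a of 1.21 (1.01 to 1.45). Scaled by total reads or to the macrophage list, Samhd1 changed side of 1, with ratios of 1 and 0.996. The precision at these levels was limited for the IFIT genes and Ifi44: the interval for Ifi44 was 0.31 to 2.36 on 17 (db/db) and 20 (db/+) reads, which contains its M-CSF ratio of 0.448. For Oas3 it was 0.775 to 1.13, above the M-CSF ratio of 0.664, and for Oas1a it was 0.977 to 1.23, above 0.751. Stromal markers had a median log2 fold of 0.01 in this comparison and macrophage markers 0.02.

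Fitted over both cultures, no member passed the limma test for genotype (0 of 13642 genes lower and 0.00733% higher). Unadjusted p-values under 0.05 were found for 3 of the 35 members and for 4.42% of all genes. The 3 were Oas3 (log2 difference -0.34, SE 0.11, limma adjusted p = 0.895), Ifi44 (-0.69, SE 0.25, limma adjusted p = 0.945) and Ifi205 (-0.34, SE 0.15, limma adjusted p = 1). On the recovered read counts, edgeR's quasi-likelihood test called 1 member, Ifi44 (log2 difference -1.06, adjusted p = 0.0168), and, over all genes, 2 lower and 101 higher. Its unadjusted p was under 0.05 for 5 members and for 6.05% of all genes. DESeq2 called no member and, over all genes, 0 lower and 2 higher, with an unadjusted p under 0.05 for 2 members and for 0.821% of all genes.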

How the data were processed

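RNA of marrow cultures was depleted of ribosomal RNA and sequenced from both fragment ends, per the labels, with 1 library per group. The deposited values are a normalised signal: gene read counts that the authors divided by a size factor and rounded to 1 decimal, TMM-scaled going by the file headers and names. The submitters' processing notes name TopHat 1.2.0, edgeR and the builds mm8 and mm9 without roles; the counter, annotation and strand setting are not stated there. All 4 libraries were read in 1 lane, going by the read names in the labels. Low values were whole multiples of 1 step per library, which gave back whole reads (within 0.1) for 100.0% of values and 25603389 to 28622706 reads per library. Because the unit was a normalised signal and not counts, the main test was limma 3.58.1 (R 4.3.3) with variance trend on log2(value + 5), genotype plus culture, over 13642 genes with 20 or more in at least 1 library, with Benjamini-Hochberg adjustment; edgeR 4.0.16 and DESeq2 1.42.0 on recovered reads were alternatives. It leaves 1 residual degree of freedom, and p-values measure only the spread between these libraries, which may be technical. Pairwise comparisons have 1 library per group and no test: ratios carry exact conditional binomial 95% intervals on read pairs (SciPy 1.17.1), which cover counting error only, and a 2-fold call is on the log2(value + 5) scale. A count of 0 allows up to 3 read pairs, 5.23 to 6.73 normalised reads. Tables held 38 repeated symbols, kept as separate rows; all 35 members occur once. Promoters came from RefSeq tables (GRCm38.p6) and exon lengths and 50-base words from GENCODE M21, a build the files do not use, so these describe the genes and not the counting. Scripts were tested on simulated data. All 35 members are named; of other pathway genes, those that passed a threshold and a fixed set of relay genes, 1 of which is not reported here. The members and lists were chosen with earlier results of these data known.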

Additional observations from a re-analysis of the deposited data

Results flagged for a closer look

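For 2 of the 35 genes the ratio of db/db to db/+ lay on opposite sides of 1 in M-CSF and GM-CSF cultures, with both intervals excluding 1. Ifi27l2a had a ratio of 1.21 in GM-CSF cultures and 0.572 in M-CSF cultures, and Dtx3l had 1.12 in GM-CSF cultures and 0.927 in M-CSF cultures. With 1 library per group the difference between cultures was not tested. The same pattern was found for 190 of the 13642 genes (1.39%). It depended on the scaling. With total reads or macrophage scaling the GM-CSF interval of Ifi27l2a held 1 (0.996 to 1.43 with macrophage scaling), and on the macrophage scaling the M-CSF ratio of Dtx3l was 0.996 (0.949 to 1.05), so that on that scaling neither gene met the pattern.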

How the results depend on the processing

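No paired analysis was possible because each group has 1 library and the labels give no replicate numbers. Of the 16 macrophage markers, 12 were lower in GM-CSF in each genotype. Scaling to this list moved the median culture log2 fold of all genes to 1.46 (db/db) and 1.67 (db/+), against -0.34 and -0.29 with total reads. Under it, members 2-fold lower in GM-CSF numbered 14 (db/db) and 15 (db/+), against 8.41% and 6.87% of all genes. Members 2-fold higher numbered 2 in each, against 9886 (db/db) and 10529 (db/+) of all 13642 genes. The interval lay below 1 for 20 in each, against 8.25% (db/db) and 5.48% (db/+) of all genes. It lay above 1 for 10 in each, against 81.6% (db/db) and 83.2% (db/+) of all genes. In db/db, 22 members were lower at any size, against 12.8% of all genes. Ratios that turned over 1 in db/db were Oas1a 1.49, Oas1b 1.07, Oas1c 2.55, Oas1g 1.3, Ifih1 1.57, Eif2ak2 1.73, Parp9 1.72, Dtx3l 1.38, Usp18 1.13, Isg20 1.14, Bst2 1.57, Samhd1 1.87 and Ifi35 2.19. Those in db/+ were Oas1a 1.17, Oas1c 2.14, Ifih1 1.57, Eif2ak2 1.77, Parp9 1.78, Parp14 1.08, Dtx3l 1.31, Isg20 1.14, Bst2 1.55, Samhd1 1.91 and Ifi35 2.08. For db/db against db/+ in M-CSF, this scaling left 14 intervals below 1 (6.13% of all genes) and put Ifit3 at 1.002. In GM-CSF, members with an interval above 1 numbered 1 with total reads (3.1% of all genes) and 1 with macrophage scaling (2.75% of all genes). On single reads, where the interval of every gene is narrower, 6 lay above 1 and 1 below 1. The share of all genes at that setting is not given, so these counts describe the setting and not the members. With a pseudocount of 1, 1 member, Oasl1, was 2-fold higher, as were 282 of all 13642 genes. With total reads the culture fit called Oas1c as well, 35 of 35. The genotype fit called 1 member with edgeR. The culture fit called 0 members with no filter (unadjusted p under 0.05 for 33). Leaving out 1 library at a time, without the other factor, it called 33 to 34. Genotype values then ran -2.08 to 1.40 for Ifi205, -3.41 to 2.02 for Ifi44 and -1.90 to 1.22 for Oas3; with 3 libraries genotype and culture are partly confounded. Leaving out the 8 members that share 10% or more of their 50-base words, chosen after seeing the data, left 27 of 27 called in the culture fit and 19 of 27 intervals below 1 for genotype in M-CSF. The causes of these changes were not tested. In GM-CSF cultures low counts of Ifi44, Oasl1, Ifit3 and Mx2 limit the genotype ratios.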
